A study of Mus musculus with 2 samples.

Results

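The 10 genes described here, Adgrl3, Nkain2, Luzp2, Tenm3, Cadm2, Csmd1, Ntng1, Kcnq5, Ncam1 and L1cam, are best known from neurons and were high in the Schwann-like cells of denervated mouse muscle. They were picked, out of the 32287 features of the count matrix, because earlier results of the same library showed them leading Schwann-like cells. Their excess there is therefore a description with no test. The cells came from tibialis anterior and gastrocnemius muscle of S100GFPtg mice, titled WT, taken 7 days after crush of the sciatic nerve and sorted as live (propidium iodide negative) GFP+ cells. Per the study's methods the animals were pooled males, while the series text speaks of 1 mouse, so the number of animals is uncertain. Their age is given as 2 months where the sequencing is described and as 10 to 16 weeks where nerve crush is, and is not certain either. The transgene drives GFP from the S100B promoter, but GFP+ does not by itself mean Schwann cell. The paper found many GFP+ clusters of other cells, with Gfp mRNA but hardly any S100b. It proposes that Schwann cells were dedifferentiating at this time, and leaves that to experiment. There was 1 GFP+ library and no uninjured library was analysed here, so no value below is an effect of injury. A GFP- library of the same design served only for a count of barcodes, of which 372 of the 36400 GFP+ barcodes (1.02%) occurred in both. With 1 library there is no replicate, and all intervals are 95% intervals that cover counting error only.

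Schwann cells ensheath and myelinate the axons of peripheral nerve, and terminal Schwann cells cap the neuromuscular junction. When a nerve is crushed, the axons beyond the crush degenerate, and Schwann cells that lose contact with them switch off myelin genes and take on a repair state. Immature, non-myelinating and repair Schwann cells are known to carry adhesion molecules, NCAM and L1 among them, with which they meet growing axons. Of the 10 genes, 6 encode adhesion proteins in the usual sense, namely Adgrl3, Tenm3, Cadm2, Ntng1, Ncam1 and L1cam. The other 4 encode a membrane protein that binds the sodium pump (Nkain2), a leucine zipper protein (Luzp2), a transmembrane protein with complement control domains (Csmd1) and a potassium channel subunit (Kcnq5), so the name adhesion genes does not cover the whole set.

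Schwann-like barcodes were gated by marker genes, Sox10, Cdh19, Erbb3, Foxd3 and Gfra3 among them, in the 8742 barcodes with at least 5000 UMIs (unique molecular identifiers, 1 per captured RNA molecule) and under 10% mitochondrial UMIs. The gate took 80 barcodes, or 0.915% (Clopper-Pearson interval 0.726 to 1.14%), with a median of 8787.5 UMIs and a range of 5056 to 42489. None of the 10 genes was used in any gate. The gate markers stood apart by construction, with Cdh19 at 1511.8 counts per 1000000 UMIs (CPM) in these barcodes against 1.94 in the other gated ones, Sox10 at 244.9 against 0.224 and Foxd3 at 300.9 against 0.193. Genes of Schwann cells that no gate used were high as well, with Sox2 at 202.2 CPM against 0.102 and Ngfr at 570.1 against 1.42. The other gated barcodes numbered 7546 in 10 classes, each called after its markers and meant as alike in those markers only. They were monocyte/macrophage-like (5180), mesenchymal-like (1271), dendritic-like (306), tenocyte-like (256), satellite cell/myoblast-like (250), mesenchymal-like with Apod and Col28a1 (93), mural-like (59), erythroid-like (54), endothelial-like (53) and muscle fibre-like (24). A further 171 barcodes were left out as mixed and 925 fell in no class. Of the 80 Schwann-like barcodes, 2 also occurred in the GFP- library.

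The promoters of the genes are shown first, since SOX factors such as Sox10 hold Schwann cell identity and since AP-1, CRE and TEAD sites are read by factors of the repair response. RefSeq promoters of the build GRCm38.p6 (250 bases before to 50 after a start) were matched for 8 of the 10 genes by symbol, with 12 starts among them. The motifs, chosen with the sequences known, were read on both strands. The SOX set held ACAAAG, the variant that ends in ATG (ACAATG) and the variant AACAAT, which can overlap it by 5 bases. AP-1 was read as TGANTCA, the CRE as TGACGTCA, its own reverse complement, and TEAD as GGAATG. Matches were found in a promoter of 3 of the 8 genes, printed here 5′ to 3′ on the gene's strand with each match in capitals.
Tenm3 (chr8:48674641-48674940, minus strand): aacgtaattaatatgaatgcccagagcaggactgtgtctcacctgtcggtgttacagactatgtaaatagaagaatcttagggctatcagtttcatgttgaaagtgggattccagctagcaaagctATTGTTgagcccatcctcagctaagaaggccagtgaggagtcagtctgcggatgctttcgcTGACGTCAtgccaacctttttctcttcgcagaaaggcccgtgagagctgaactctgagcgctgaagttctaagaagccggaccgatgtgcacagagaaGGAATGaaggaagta
Kcnq5 (chr1:21962601-21962900, minus strand): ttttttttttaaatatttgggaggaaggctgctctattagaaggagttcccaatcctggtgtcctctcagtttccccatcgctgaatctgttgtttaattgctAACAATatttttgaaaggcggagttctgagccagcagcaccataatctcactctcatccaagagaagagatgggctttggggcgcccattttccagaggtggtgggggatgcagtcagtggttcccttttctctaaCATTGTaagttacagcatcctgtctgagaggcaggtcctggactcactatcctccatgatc
Ntng1 (chr3:110143423-110143722, minus strand): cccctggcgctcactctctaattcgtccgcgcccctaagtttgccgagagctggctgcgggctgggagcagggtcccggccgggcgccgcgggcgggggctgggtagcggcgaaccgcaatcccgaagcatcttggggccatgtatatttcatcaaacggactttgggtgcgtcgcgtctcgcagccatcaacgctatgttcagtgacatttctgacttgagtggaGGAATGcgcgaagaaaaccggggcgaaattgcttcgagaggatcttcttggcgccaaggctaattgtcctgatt
The Tenm3 promoter held AACAAT read on the opposite strand from base 127, TGACGTCA from base 188 and GGAATG from base 286, counted from 1 at the 5′ end of the window. This Tenm3 start lies 848.1 kb inside the 5′ end of the RefSeq gene span. The Kcnq5 promoter held AACAAT from base 104 and, on the opposite strand, ACAATG from base 240, and the second Kcnq5 start held no match. The Ntng1 promoter held GGAATG from base 227. Over all 32851 promoters of the table, ACAAAG occurred in 18.7%, ACAATG in 12.6%, AACAAT in 10.7%, GGAATG in 14.7%, TGANTCA in 7.81% and TGACGTCA in 1.79%. All but the last are thus frequent, and no motif of this set was held by more than 2 of the 8 genes in these windows. The GC content of the 12 windows ranged from 41.3% (Luzp2) to 78.7% (Nkain2), beside a median of 52.7% over all promoters.

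All 10 genes were higher in Schwann-like than in other gated barcodes, and together they made up 1.89% of the UMIs of Schwann-like barcodes and 0.019% of those of the others. Each of the 10 passed 4-fold against the sum of all other gated barcodes, where 7.08% of the 19634 genes with at least 10 UMIs did so. In barcodes of 1000 to under 5000 UMIs Ncam1 lost this call (log2 1.87), the other 9 ranged from log2 3.13 to 7.39 and 3.62% of tested genes passed. Against every other class separately, 9 of the 10 passed 4-fold, beside 0.952% of all tested genes. The exception was Ncam1. Kcnq5 passes only because 14 lymphoid barcodes, too few to count as a class, were left out, since it was at 670.3 CPM in them against 906.3 CPM in Schwann-like ones. The median log2 ratio of the 10 genes was 6.94, and that of all tested genes was 0.03. The genes were chosen on this contrast, so nothing is read from these counts. What follows gives each gene's own level, its order over the classes and its spread among the 80 barcodes. CPM values were not compared between genes, since they are not per length.

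**Figure D1:**
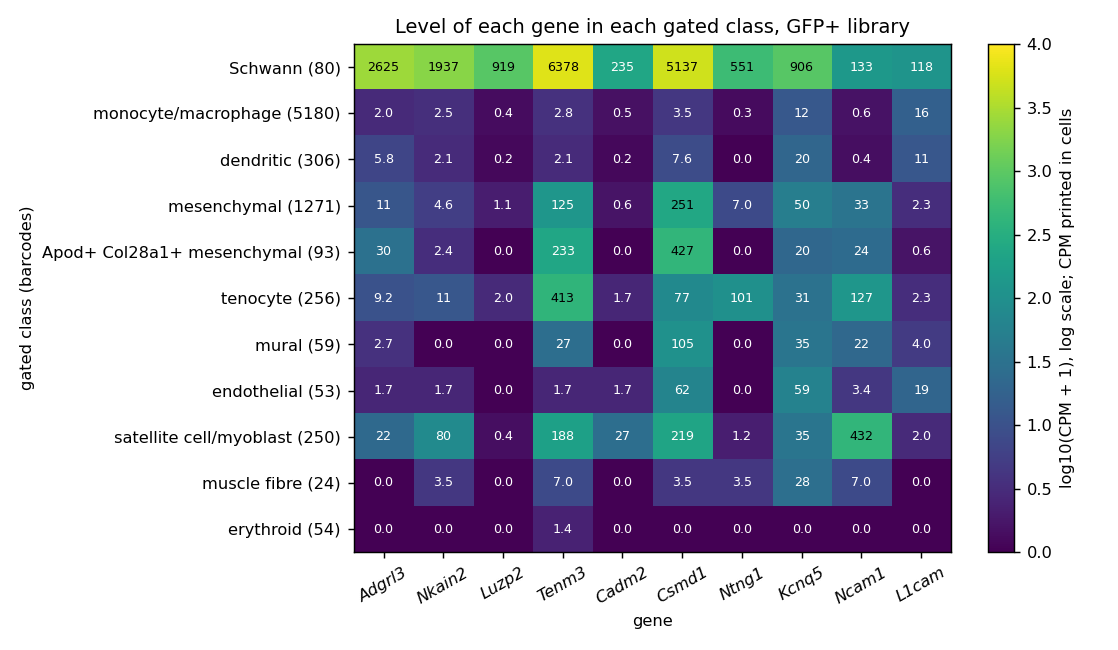
Level of each of the 10 genes (columns) in each gated class (rows, number of barcodes in brackets) as counts per 1000000 UMIs (CPM), printed in the cells and coloured as log10(CPM + 1). The Schwann row is the highest of its column for 9 genes, and for Ncam1 the satellite cell/myoblast row is (431.9 CPM against 132.8).

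Latrophilin and teneurin are partners across the synapse. Adgrl3 encodes latrophilin 3, an adhesion G protein-coupled receptor that binds teneurins and FLRT proteins. It held 2155 UMIs in Schwann-like barcodes, which was 2625.2 CPM, and the next classes were the mesenchymal-like barcodes with Apod and Col28a1 at 29.8 CPM and the satellite cell/myoblast-like ones at 22.4 CPM, whose intervals overlapped. The other 8 classes ranged from 0 (muscle fibre-like and erythroid-like) to 10.6 CPM. Over the 80 barcodes Adgrl3 ran from 0 through a median of 1917.8 to 16222.0 CPM, and 2 barcodes had no UMI of it.

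Tenm3 encodes teneurin 3, a large transmembrane protein that guides the matching of neurons. Tenm3 was the only one of the 10 genes found in each of the 80 Schwann-like barcodes, where it ran from 949.1 through a median of 5060.9 to 35552.5 CPM. Its pooled level was 6378.4 CPM, followed by tenocyte-like (413.4), Apod and Col28a1 mesenchymal-like (232.7), satellite cell/myoblast-like (187.9) and mesenchymal-like barcodes (125.1), with no overlap of intervals between neighbours down to the mural-like barcodes (26.9). The other 5 classes lay between 1.4 and 6.98 CPM. After thinning each barcode to 5000 UMIs, Tenm3 was found in 194 of the 256 tenocyte-like barcodes (75.8%, 70.1 to 80.9%; unthinned 87.5%) and in none of the 53 endothelial-like ones (up to 6.72%; unthinned 1.89%), which had a median of 8835.0 UMIs against 10457.5. Tenm3 was thus spread over most tenocyte-like barcodes, at a level 15.4-fold below the Schwann-like one.

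Cadm2 and Ntng1 also encode surface proteins of synaptic contacts. Cadm2 is an immunoglobulin-type adhesion protein that pairs with other Cadm proteins, and it was the most uneven of the adhesion genes. It held 235.1 CPM in Schwann-like barcodes, but 49 of the 80 had no UMI of it, the highest had 2318.3 CPM, and the 8 barcodes with the most Cadm2 UMIs held 56.5% of them. The only other class clearly above the rest was satellite cell/myoblast-like at 27.2 CPM, and the other 9 ranged from 0 to 1.72 CPM with overlapping intervals. Of the 250 satellite cell/myoblast-like barcodes, 20 held Cadm2 after thinning (8%, 4.95 to 12.1%), against 27 of 80 Schwann-like ones (33.8%, 23.6 to 45.2%) and 0 of 53 endothelial-like ones.

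Ntng1 encodes netrin-G1, a lipid-anchored protein that binds the netrin-G ligand Lrrc4c. It stood at 550.6 CPM in Schwann-like barcodes, with a median of 368.1, a range of 0 to 3948.1 CPM and 14 barcodes without a UMI. The tenocyte-like barcodes came next at 100.8 CPM, from which the Schwann-like level differed 5.46-fold (log2 2.45, interval 2.24 to 2.66). After thinning, 80 of 256 tenocyte-like barcodes held Ntng1 (31.2%, 25.6 to 37.3%; unthinned 47.7%), and 0 of 53 endothelial-like ones did, with and without thinning. Mesenchymal-like barcodes were at 7.04 CPM and the other 8 classes between 0 and 3.49. Ntng1 was thus a gene of both Schwann-like and tenocyte-like barcodes in this library.

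Ncam1 and L1cam are the classical neural adhesion molecules of the set, and the median Schwann-like barcode held 0 UMIs of Ncam1 and 1 of L1cam. Ncam1, which encodes a homophilic immunoglobulin-type protein used as a marker of muscle precursors and denervated fibres as well as of nerve, was highest in satellite cell/myoblast-like barcodes at 431.9 CPM. Schwann-like barcodes were at 132.8 CPM (109.0 to 160.2), that is log2 -1.70 (-2.00 to -1.42). Tenocyte-like barcodes were at 127.2 CPM, which could not be told from the Schwann-like level (log2 ratio 0.06, -0.26 to 0.37). After thinning, 195 of 250 satellite cell/myoblast-like (78%, 72.3 to 83%), 100 of 256 tenocyte-like (39.1%, 33 to 45.3%), 33 of 80 Schwann-like (41.2%, 30.4 to 52.8%) and 1 of 53 endothelial-like barcodes (1.89%) held Ncam1. No Schwann-like barcode held more than 9 UMIs of it, and 41 held none.

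L1cam encodes a receptor of axon growth and bundling that non-myelinating Schwann cells are known to carry. It was at 118.2 CPM in Schwann-like barcodes, from 0 through a median of 76.7 to 564.9 CPM, and 36 barcodes had no UMI. Endothelial-like barcodes (18.9 CPM) and monocyte/macrophage-like ones (15.7 CPM) followed with overlapping intervals, and the other 8 classes ranged from 0 to 11.3 CPM. Its next classes were thus vascular and myeloid, unlike those of the stromal or myogenic genes above. After thinning it was found in 37 of 80 Schwann-like barcodes (46.2%, 35 to 57.8%), 353 of 5180 monocyte/macrophage-like ones (6.81%, 6.14 to 7.54%) and 3 of 53 endothelial-like ones (5.66%, 1.18 to 15.7%). The annotation GENCODE M39 places Arhgap4 on the same strand in overlap with L1cam, so some UMIs could belong to either gene.

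The 4 genes that are not classical adhesion genes differed in which class came second. Csmd1, which encodes a regulator of complement at synapses, held 5137.1 CPM in Schwann-like barcodes, from 0 through a median of 3898.8 to 40494.4 CPM. Stromal and myogenic classes came next, with 427.2 CPM in mesenchymal-like barcodes with Apod and Col28a1, 250.9 in the other mesenchymal-like ones and 219.1 in satellite cell/myoblast-like ones, all apart by their intervals. In these classes Csmd1 sat in a minority of barcodes, namely 301 of 1271 mesenchymal-like ones (23.7%, 21.4 to 26.1%) and 74 of 250 satellite cell/myoblast-like ones (29.6%, 24 to 35.7%) after thinning, against 69 of 80 Schwann-like ones (86.2%, 76.7 to 92.9%). In tenocyte-like barcodes (76.8 CPM), 1 barcode held 232 of the 233 Csmd1 UMIs, and in endothelial-like ones (62 CPM) 1 held 35 of 36, so those class levels each rest on 1 barcode.

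Nkain2 was at 1936.9 CPM in Schwann-like barcodes, from 0 through a median of 1368.8 to 7842.5 CPM, with 1 barcode lacking it. Satellite cell/myoblast-like barcodes were next at 79.6 CPM, and 38 of those 250 held it after thinning (15.2%, 11 to 20.3%), against 0 of 53 endothelial-like ones. Tenocyte-like barcodes followed at 11.2 CPM, of which 1 barcode held 31 of the 34 UMIs, and the other 8 classes ranged from 0 to 4.61 CPM. The second level of Nkain2, like that of Cadm2, was therefore myogenic.

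Luzp2 had the largest ratio of the set. It held 754 UMIs (918.5 CPM) in the 80 Schwann-like barcodes and 53 UMIs (0.538 CPM) in the 7546 others, where no class passed 1.98 CPM and 5 classes had none. That is 1706-fold, or log2 10.74 (10.33 to 11.17), and under other filters it ran from log2 7.39, in barcodes of 1000 to under 5000 UMIs, to 11.95, with mixed barcodes left out more strictly. Among Schwann-like barcodes it ran from 0 through a median of 695.2 to 4400.4 CPM, and 76 of 80 held it.

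Kcnq5, a subunit of the channels that carry the M current of neurons, stood at 906.3 CPM in Schwann-like barcodes and was also found in most other classes. It lay between 11.7 CPM (monocyte/macrophage-like) and 58.5 CPM (endothelial-like) in 9 of the other 10 classes, and most neighbours in that order overlapped. The endothelial-like level rests on few barcodes, since 2 of them held 26 of its 34 UMIs and 3 of 53 (5.66%) held Kcnq5 after thinning. Erythroid-like barcodes had none. Its Schwann-like level was carried by few barcodes, since the top 8 held 52.8% of the UMIs, 1 barcode alone had 129 UMIs (of 744) and 20 had none. The median barcode was at 377.2 CPM and the highest at 11826.2.

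**Figure D2:**
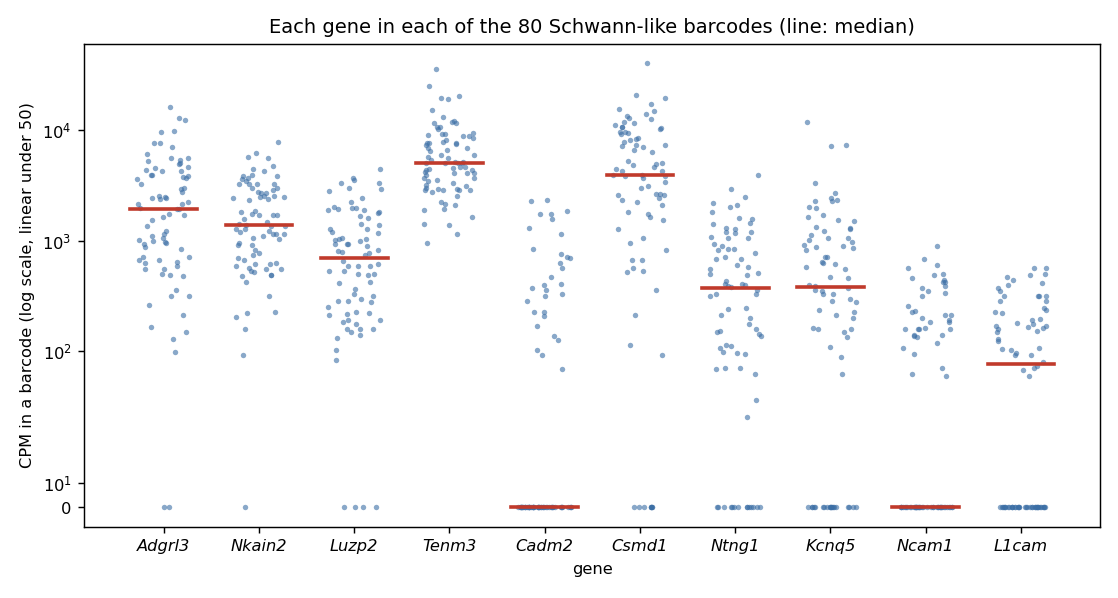
CPM of each gene in each of the 80 Schwann-like barcodes (points), with the median as a line, on a log axis that is linear under 50. Tenm3 has no barcode at 0, while the medians of Cadm2 and Ncam1 lie at 0.

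Single Schwann-like barcodes held many of the 10 genes at once. After thinning to 5000 UMIs, a Schwann-like barcode held a median of 7 of the 10 genes (range 4 to 10), 77 of 80 (96.2%) held 5 or more, and 5 held all 10. A median of 2 was found in satellite cell/myoblast-like (at most 5) and tenocyte-like barcodes (at most 7), a median of 1 in both mesenchymal-like classes, and a median of 0 in the other 6 classes, endothelial-like ones included (at most 2). Outside the Schwann-like barcodes, 5 or more genes were found in 2 of 5180 monocyte/macrophage-like, 2 of 1271 mesenchymal-like, 1 of 256 tenocyte-like and 6 of 250 satellite cell/myoblast-like barcodes. Without thinning the Schwann-like median was 8. Since the set was chosen on this contrast, the count describes the set and is no test of it.

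**Figure D3:**
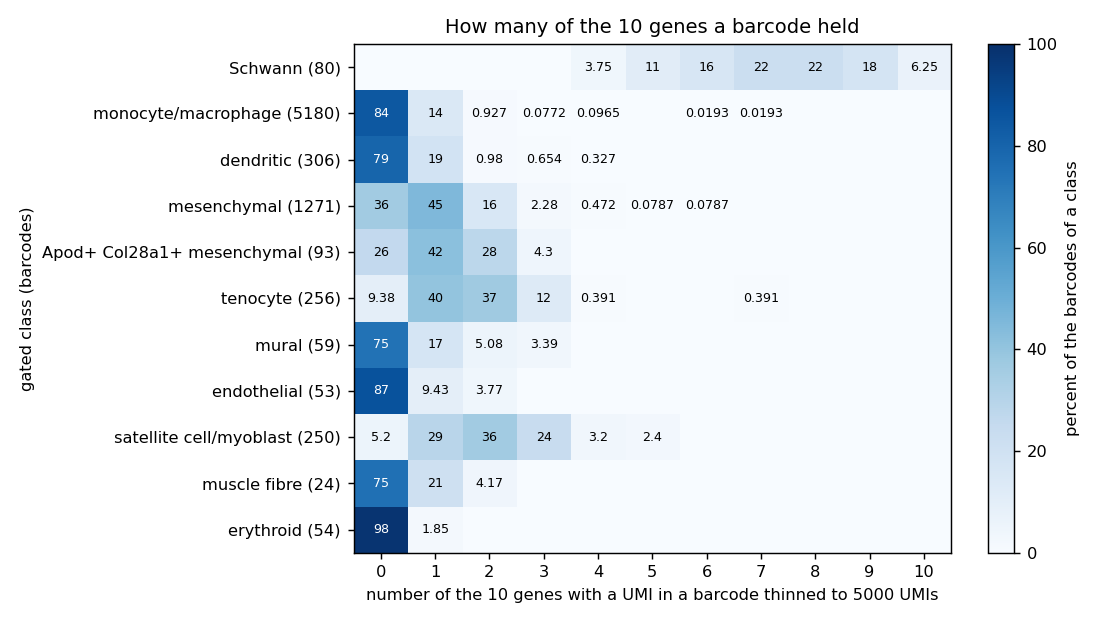
Number of the 10 genes with at least 1 UMI in a barcode thinned to 5000 UMIs (horizontal axis) and the percent of the barcodes of each gated class with that number (colour and printed value). Schwann barcodes run from 4 to 10, and endothelial barcodes from 0 to 2.

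Within the Schwann-like barcodes the genes did not rise and fall as one. Over the 45 pairs, Spearman's rho across the 80 thinned barcodes, which share 1 library and sum to the same total, had a median of 0.13 and ran from -0.41 to 0.67. The highest value, 0.67, belonged to Adgrl3 and Tenm3, whose products can bind each other as receptor and ligand. Tenm3 also went with Nkain2 (0.45) and Luzp2 (0.39), and Adgrl3 with Luzp2 (0.41). Csmd1 went with Cadm2 (0.50), Kcnq5 (0.39) and Ntng1 (0.33). These were the 7 pairs over 0.3, and the lowest value, -0.41, belonged to Tenm3 and Cadm2. Some of these genes also went with the share of the nuclear RNA Malat1 over these barcodes, with a rho of 0.60 for Tenm3, 0.51 for Adgrl3, 0.26 for Luzp2 and -0.29 for Cadm2, and the part of Malat1 in the pairs was not tested. No pair over 0.3 joined Adgrl3, Tenm3, Nkain2 and Luzp2 with Csmd1, Cadm2, Kcnq5 and Ntng1. This parting was not sharp, since Luzp2 went with Kcnq5 at 0.30 and Csmd1 at 0.21 but with Nkain2 at 0.07. The counts are sparse, and these values are a description.

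**Figure D4:**
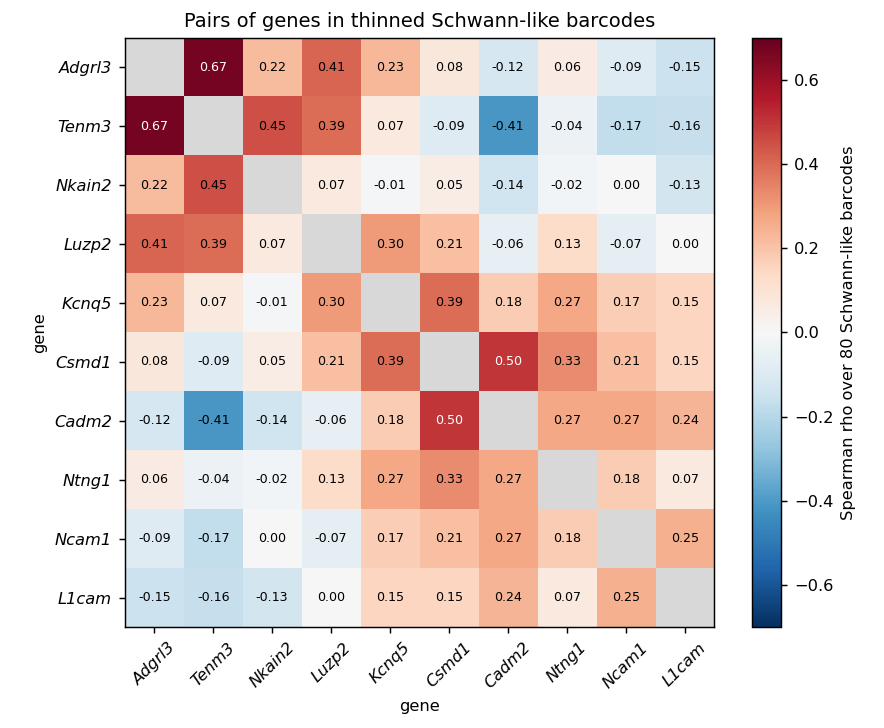
Spearman's rho of each pair of genes over the 80 Schwann-like barcodes thinned to 5000 UMIs, as colour and printed value. Adgrl3 and Tenm3 have the highest value (0.67) and Tenm3 and Cadm2 the lowest (-0.41).

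The 27 Schwann-like barcodes with a Cadm2 UMI after thinning had a median of 8497.0 UMIs and the 53 without had 8934.0. Csmd1 stood at 8305.4 CPM with Cadm2 and 3717.1 CPM without (log2 1.16, 1.07 to 1.25), and the medians of the barcodes were 9414.2 and 2562.4 CPM. Tenm3 went the other way, with 4727.4 CPM against 7118.4 (log2 -0.59, -0.68 to -0.50) and medians of 3190.4 and 6430.9 CPM. The single barcodes of both sets overlapped for both genes.

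Ncam1, Ntng1, Kcnq5 and L1cam were also higher in the barcodes with Cadm2, by log2 1.78, 1.07, 0.89 and 0.89. With Csmd1, 5 of the other 9 genes were thus higher and 2 lower with intervals that left out 0, where 16.3% of the 1676 tested genes with at least as many UMIs as the lowest of the 9 were higher and 16.2% lower. Nkain2 was at 1751.6 CPM with Cadm2 and 2020.0 without. The intervals of the difference held 0 for Adgrl3 (-0.23 to 0.04) and Luzp2 (-0.30 to 0.16), although the median barcode was lower with Cadm2 for both, at 1110.2 against 2141.3 CPM for Adgrl3 and 610.7 against 785.4 CPM for Luzp2. Among repair genes, Olig1, a transcription factor raised in injured Schwann cells, was at 94.5 CPM with Cadm2 and 236.4 without. Artn (log2 -2.30, on 3 and 33 UMIs), Ngfr (-0.33) and Runx2 (-0.22) were also lower with intervals that left out 0. The growth factor gene Gdnf was at 291.3 and 160.5 CPM, and Btc was higher as well (log2 0.63). Gap43, Jun, Sox2 and Bdnf had intervals that held 0, and Shh had no UMI. This split was made after the correlations were seen, and its intervals treat molecules, not cells, as independent.

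Most Schwann-like barcodes held Ngfr. This gene, which encodes the low-affinity neurotrophin receptor and marks Schwann cells without myelin, had at least 2 UMIs in 69 of the 80 and none in 4. In those 4 barcodes, which had a median of 6052.0 UMIs against 9050.0, Tenm3 was at 21001.5 CPM and Adgrl3 at 10440.5 CPM, compared with 6011.8 and 2437.7 in the 69. A set of 4 barcodes is too small to describe a state. Of the 8 myelin genes counted (Mbp, Mag, Prx, Pmp22, Egr2, Mal, Pllp and Ncmap), 43 barcodes had at least 2 UMIs in all and 20 had none, with medians of 10471.0 and 6352.5 UMIs per barcode. The sum of these 8 genes does not single out Schwann cells. It was 346.0 CPM in Schwann-like barcodes, 497.9 in monocyte/macrophage-like and 380.5 in tenocyte-like ones. Pmp22, Mbp and Egr2, none of them called higher in Schwann-like barcodes, gave 93, 50 and 35 of the Schwann-like UMIs. The other 5 genes were called higher, and Mal gave 58 UMIs, Pllp 19, Prx 13, Mag 11 and Ncmap 5. The split is thus one by UMIs of these genes, and whether it follows myelination was not tested.

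In the barcodes with at least 2 UMIs of the 8 genes, 7 of the 10 genes were lower with intervals that left out 0. In the same split 5.19% of the 8058 tested genes with at least 10 UMIs were lower in this way and 7.27% higher. Of the 1641 with at least as many UMIs as the lowest of the 10, 12.6% were lower and 13.8% higher. Kcnq5 was at 683.9 CPM against 1866.7 (log2 -1.45, -1.68 to -1.22), Ntng1 at 421.1 against 1116.0 (log2 -1.41), Luzp2 at 767.7 against 1616.5 (log2 -1.07) and Adgrl3 at 2051.6 against 3706.4 (log2 -0.85). Cadm2, Csmd1 and Tenm3 differed by log2 -0.60, -0.55 and -0.39. Of the 7, Tenm3 alone had a median barcode that went the other way, at 5060.1 CPM against 4862.4. Nkain2 (2003.2 and 2002.0 CPM), Ncam1 (137.9 and 135.3) and L1cam (115.5 and 135.3) had intervals that held 0. The set with myelin gene UMIs, where the genes were lower, was the deeper one, and the part of depth in the differences was not tested. Cell cycle genes could not be used for such a split, since Mki67, Top2a, Cdk1, Ccnb1, Cenpf and Birc5 summed to 7.31 CPM in Schwann-like barcodes and 74 of the 80 had no UMI of them.

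Between Schwann-like barcodes rich and poor in Malat1, 7 of the 10 genes were higher and 1 lower with intervals of the ratio that left out 0, where 16.6% of the 1676 tested genes with at least as many UMIs as the lowest of the 10 were higher and 17.7% lower. Malat1 was highest in Schwann-like barcodes at 42156.4 CPM, ahead of mural-like (30222.2) and tenocyte-like ones (20966.7), and 12858.0 CPM in endothelial-like ones. The 40 Schwann-like barcodes with the most Malat1 (median 55936.8 CPM) had more Adgrl3 (3794.5 against 1782.1 CPM), Tenm3 (8673.6 against 4723.5), Luzp2 (1229.9 against 694.0), Kcnq5 (1381.1 against 564.0), Ntng1 (703.7 against 440.3) and Csmd1 (6021.8 against 4499.2) than the other 40 (median 32330.3 CPM). Nkain2 was at 2125.5 and 1800.9 CPM with intervals just apart. Cadm2 was lower with more Malat1, at 165.7 CPM (125.5 to 214.7) against 285.1 (239.2 to 337.3), and the intervals of Ncam1 and L1cam overlapped. The set with more Malat1 was shallower, with a median of 7525.0 UMIs per barcode against 9962.0 and 343917 UMIs in all against 476978, and its median mitochondrial share was 4.09% against 3.74%. The part of nuclear RNA and of depth in these differences was not tested.

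Great length, which the choice did not use, was shared by 9 of the 10 genes, all but L1cam. In RefSeq coordinates of GRCm38.p6 they are, in order of position, Kcnq5 (chr1:21398399-21962650), Ntng1 (chr3:109780050-110149972), Adgrl3 (chr5:81019085-81827825), Luzp2 (chr7:54835245-55268888), Csmd1 (chr8:15892538-17535385), Tenm3 (chr8:48225665-49522824), Ncam1 (chr9:49502129-49799393), Nkain2 (chr10:31689310-32897174), Cadm2 (chr16:66655416-67620917) and L1cam (chrX:73853778-73880838). Their lengths ran from 27.1 kb (L1cam) to 1642.8 kb (Csmd1), with a median of 686.5 kb (590.9 kb by the spans of GENCODE M39, where Tenm3 has 618.3 kb in place of 1297.2 kb) beside 22.1 kb for tested genes, 90.2% of which had a length. Of the 10, 6 reached 500 kb, and 9 were longer than at least 96.9% of tested genes, L1cam being longer than 56.3%. In the GENCODE M39 annotation of GRCm39, exons covered 0.388% (Nkain2) to 2.96% (Ncam1) of the span of these 9 genes and 18.7% of that of L1cam, and the rest was intron.

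Length also went with the contrast over all genes. The share of tested genes at least 4-fold higher in Schwann-like barcodes rose from 5.07% under 10 kb to 24.5% at 500 kb or more, and to 22.4% (47 of 210) with the 10 genes left out. Genes of 500 kb or more held 4.38% of Schwann-like UMIs, or 2.66% without the 10 genes, against 0.049% to 2.4% in the other classes. The median log2 ratio did not move in the same way, being -0.20 under 10 kb and 0.19 at 500 kb or more, where it was -0.05 without the 10 genes. The counting included introns under the software's default setting, as far as the methods state. How far intronic molecules, Malat1 level and length bear on the levels of the 10 genes was not tested. L1cam, at 27.1 kb, and Ncam1, at 297.3 kb, had the lowest ratios of the set (log2 3.35 and 2.56). Luzp2, at 433.6 kb, had the highest (log2 10.74), and Csmd1, the longest at 1642.8 kb, had log2 6.21.

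**Figure D5:**
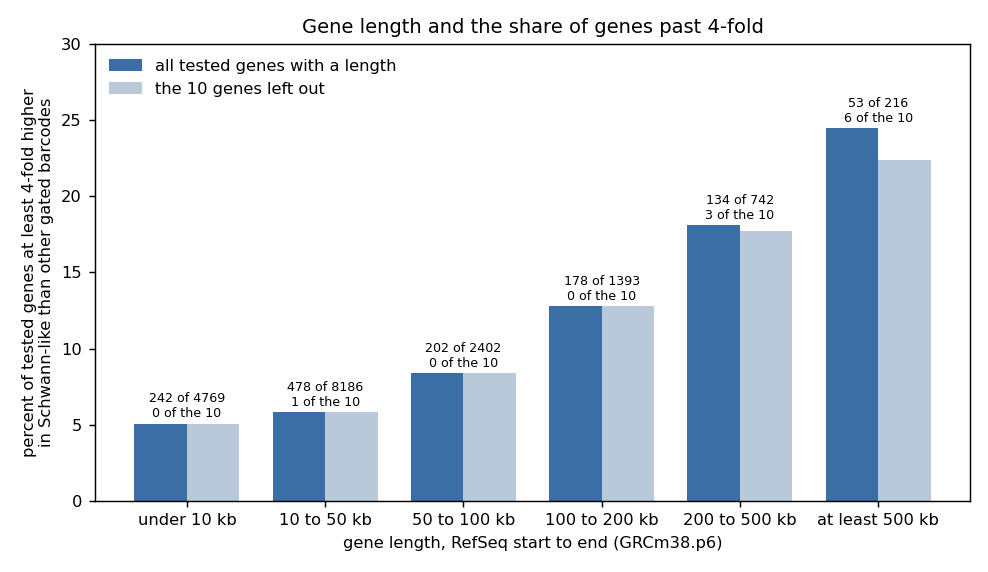
Percent of tested genes at least 4-fold higher in Schwann-like than in other gated barcodes (vertical axis, from 0) by gene length, with the counts above the bars, for all genes (dark) and without the 10 genes (light). The share is 5.07% under 10 kb and 24.5% at 500 kb or more, and 6 of the 10 genes lie in the last bin.

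Relatives of the 10 genes were higher in part. Of 23 other members of the same families, 22 were tested, 10 were at least 4-fold higher in Schwann-like barcodes, 1 was lower (6.03% of all tested genes were) and 4 passed 4-fold over every class, with a median log2 ratio of 2.35 against 0.03 for all genes. Csmd2 had the largest ratio (log2 7.91) on 12 UMIs. Nkain4 was at 84.1 CPM against 0.528 (log2 7.31), Ncam2 at 51.2 against 0.65 (log2 6.30), and Cadm4, the Cadm protein that Schwann cells present to axons, at 265.6 against 4.59 (log2 5.85). The L1 family genes Chl1 and Nrcam were at 548.2 and 595.7 CPM, log2 4.83 and 4.02 above the other barcodes. Tenm4 was the one that was lower, with 1 UMI (1.22 CPM) in Schwann-like barcodes and 306.3 CPM in satellite cell/myoblast-like ones. Members of 1 family thus differed in class, as Tenm3 and Tenm4, or Cadm2 and Cadm3 (37.8 CPM against 98.4 in mesenchymal-like barcodes), show.

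Of 25 binding partners of the 10 proteins, 23 were tested, 8 were at least 4-fold higher, 3 were lower and 4 passed 4-fold over every class, with a median log2 ratio of 0.52. Gdnf (201.0 CPM, log2 7.48) and its receptor Gfra1 (361.8 CPM, log2 5.57), which can signal through NCAM, were both high in Schwann-like barcodes, as were Ank3 (2362.1 CPM, log2 6.54), whose product anchors L1-type proteins to the cytoskeleton, and the netrin-G1 ligand Lrrc4c (93.8 CPM, log2 4.38). Lrrc4b and Unc5c passed on 4 and 10 UMIs. Of the latrophilin ligand genes, Flrt3 was higher (46.3 CPM against 11.1 in all others, log2 2.06), Flrt1 was higher on 4 UMIs (log2 2.84) and Flrt2 was lower (11 CPM against 180.9 in mesenchymal-like barcodes). Also lower were Nrp1 (46.3 against 229.1 in all others) and St8sia4 (3.65 against 94.8), which adds polysialic acid to NCAM. St8sia2, the other polysialic acid enzyme, had 1 UMI.

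Of 33 other adhesion genes of axons and synapses, 30 were tested, 13 were at least 4-fold higher, 2 were lower and 4 passed 4-fold over every class, with a median log2 ratio of 1.64. The neurexin gene Nrxn3 (235.1 CPM, log2 6.48) was among them, with Il1rapl1 (179.1 CPM, log2 5.32) and, on 14 and 11 UMIs, Lrrtm4 and Lrrtm2. Pcdh9 was at 749.2 CPM (log2 4.25). Nlgn1, a postsynaptic partner of neurexins, was lower, with 2 UMIs in Schwann-like barcodes and 188.4 CPM in tenocyte-like ones, as was the guidance receptor gene Robo1 with 1 UMI. Contactins and Cntnap genes had 0 or 1 UMI each in Schwann-like barcodes, so high levels were not shared by all neural adhesion genes.

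The state of the Schwann-like barcodes was read from 2 further lists. Of 11 injury and repair genes, 10 were tested and 8 were at least 4-fold higher, all 8 over every class, with Sox2 at 202.2 CPM (log2 10.96), Olig1 at 192.5 (log2 10.40), Btc at 950.2 (log2 10.01), Ngfr at 570.1 (log2 8.65) and Gap43 at 622.5 (log2 7.40). Jun and Bdnf did not pass (log2 0.32 and -0.03), and Shh had no UMI in any class. Of the 8 myelin genes, 5 were at least 4-fold higher and 1 of these, Mal (70.7 CPM, log2 8.86), over every class. The other 4 were Pllp (log2 7.57), Ncmap (log2 3.80), Mag (log2 2.97) and Prx (log2 2.19), on 19, 5, 11 and 13 Schwann-like UMIs, while Pmp22 (113.3 CPM against 290.7) and Egr2 (42.6 against 99.9) were below the other barcodes, both at their highest in monocyte/macrophage-like ones. No cell cycle gene was higher and Mki67 and Top2a were lower.

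Over the 11 classes, the profiles most like the mean profile of the 10 genes, by Pearson's r of log2(CPM + 1) among 3264 genes with at least 50 Schwann-like UMIs, were those of Tafa5 (r = 0.9508), Itgb8 (0.9370), Ngfr (0.9363), Zfp536 (0.9358), Adamts17 (0.9330), Il11 (0.9276), Gdnf (0.9246), Tubb2b (0.9210), 8030451A03Rik (0.9200) and Serinc5 (0.9177). All of these were higher in Schwann-like than in other barcodes, from log2 5.08 (Tubb2b) to 8.65 (Ngfr). The 10 genes were chosen on this contrast, so high ratios follow from the likeness and are no test. Ngfr and Gdnf are also on the list of repair genes.

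Markers of other cell types had UMIs in the gated Schwann-like barcodes, and the source of these UMIs was not tested. The 13 monocyte and macrophage markers, all with a UMI, summed to 1299.8 CPM there (0 to 13598.6 CPM in a barcode, median 139.6) against 29595.2 CPM in monocyte/macrophage-like barcodes, and all 13 were at least 4-fold lower than in the other barcodes. The 10 mesenchymal markers, all with a UMI, summed to 2313.3 CPM (0 to 12592.4, median 896.6) against 39323.3 CPM in mesenchymal-like barcodes, and 7 were lower, while Col1a1 (633.5 CPM), Col1a2 (639.5 CPM) and Dpt (159.6 CPM) did not pass. Single macrophage markers ranged from 3.65 CPM (Fcgr1) to 484.8 CPM (Lyz2) in Schwann-like barcodes, and mesenchymal ones from 3.65 CPM (Pdgfra) to 639.5 CPM (Col1a2). Of the tenocyte gate markers, Tnmd had no UMI in Schwann-like barcodes. Mkx was at 14.6 CPM there, Thbs4 at 12.2, Fmod and Kera at 2.44 and Scx at 1.22. In barcodes under 2000 UMIs, of any class and left out above, Adgrl3 was at 32.4 CPM, Tenm3 at 125.2 and Csmd1 at 133.8. These values lie above those of deep monocyte/macrophage-like barcodes (2.04, 2.77 and 3.47 CPM). Deep mesenchymal-like barcodes were at 10.6 CPM for Adgrl3, 125.1 for Tenm3 and 250.9 for Csmd1, so the shallow values exceeded theirs clearly for Adgrl3 only.

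Several levels differed with depth above the UMI floor, but little across the floor itself. In Schwann-like barcodes gated from 3000 UMIs, 18 had 3000 to under 5000 UMIs and 22 had 5000 to under 7000, and the intervals of both sets overlapped for 9 of the 10 genes, among them Adgrl3 (3777.7 and 3608.0 CPM), Csmd1 (7654.4 and 7829.9) and L1cam (141.5 and 112.3). For Tenm3 they were at 7937.4 CPM (7294.1 to 8622.3) and 9491.7 CPM (8976.4 to 10028.8). The 59 barcodes of 7000 UMIs or more were lower than the 22 in Tenm3 (5787.9 CPM, 5612.0 to 5968.0), Csmd1 (4487.3, 4332.5 to 4646.1) and Adgrl3 (2404.8, 2291.9 to 2521.9), and the intervals of the other 7 genes overlapped. Sets of unequal depth were also compared in the splits by myelin genes and by Malat1, where the shallower set was the higher one for most of the 10 genes. Over the 80 single Schwann-like barcodes, rho with total UMIs was weak, from -0.19 (Luzp2 and Csmd1) to 0.09 (Nkain2). It was -0.14 for Adgrl3, -0.13 for Tenm3 and -0.05 for both Kcnq5 and Ntng1. The part of depth in the splits was not tested.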

How the data were processed

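Live GFP+ cells of crushed-nerve muscle were captured as 1 droplet library with 3' tags. The authors deposited counts of UMIs per gene and barcode from Cell Ranger, not normalized (7.1.0 in the submitters' processing notes, 8.0.1 in the matrix header). The notes name mm10 as the build, the methods GRCm38 and GRCm39, and the RefSeq coordinates printed are of GRCm38.p6. Of the GFP- library, the barcodes alone were used. The genes and lists were chosen with earlier results of these data known.

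Each barcode's marker UMIs of a class were divided by its total and by the mean share in the 50 highest barcodes. A class needed 3 UMIs over 2 markers and a score of 0.2. A barcode was mixed when another compartment passed the same UMI floor with over 0.5 of that score. Classes under 20 barcodes (neutrophil, 6, and lymphoid, 14) got no value. UMIs were summed per class and divided by all UMIs (CPM), with exact Poisson intervals, exact conditional intervals for ratios and Clopper-Pearson intervals for shares. Called means at least 4-fold, with a 0 set to 3 counts and more than 3 UMIs in the higher group. The named genes were the 10 members, up to 6 genes past the fold of each list and the 10 most alike profiles, with a pseudocount of 1. Others were named after their values were seen. The self-test ran on simulated data. The software was scanpy 1.11.5 (Scrublet), scipy 1.17.1, numpy 2.4.6, matplotlib 3.10.9 and pandas 2.3.3 under Python 3.11.15. Alternatives are given in the closing section. With 1 library no test was made. Some genes of the gates and lists are counted but not reported by name here.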

Additional observations from a re-analysis of the deposited data

Results flagged for a closer look

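Kcnq5 stood out in barcodes that belong to no comparison above. The lymphoid gate (Cd3e, Cd3g, Trbc2, Nkg7, Klrb1c, Cd79a and Ms4a1) took 14 barcodes, too few to count as a class, and Kcnq5 was at 670.3 CPM in them (562.0 to 793.4). That lies above the upper bound of each class but the Schwann-like one, the highest of which was 81.8 CPM. UMIs of Kcnq5 were found in 10 of the 14 barcodes, 135 in all, of which 1 barcode held 39. Of the other 9 genes, Tenm3 had 2 UMIs there and the rest had none.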

How the results depend on the processing

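No paired analysis was possible because each fraction has 1 library and no test was made. Alternatives were planned except for leaving out the barcodes shared with the GFP- library, which was added after seeing the data and gave a median log2 ratio of 6.97. Of 100 ratios of single genes under alternatives, 54 stayed within the counting interval of the reported ratio and 46 moved out of it, none with a change of sign. The median log2 ratio of the 10 genes, 6.94, became 6.69 with a floor of 10000 UMIs (36 Schwann-like barcodes), 6.75 with mixed barcodes kept, 7.27 with mixed barcodes left out at a share of 0.25, 7.07 under 5% mitochondrial UMIs and 5.94 in barcodes of 1000 to under 5000 UMIs. In those shallow barcodes a Schwann-like one held a median of 3.5 genes after thinning to 1000 UMIs, and 3.62% of tested genes passed 4-fold, with 9 of the 10 genes. The exception was Ncam1, at log2 1.87. Thinning to 2000 UMIs gave a median of 6 genes. In each setting 9 genes were highest in Schwann-like barcodes. Luzp2 ranged most, from 7.39 in shallow barcodes to 11.95. The causes were not tested. Scrublet marked 5028 barcodes as doublets, 140 of them deep and none Schwann-like, so that setting left out few deep barcodes. Whether unmarked deep doublets remained was not tested. Luzp2, Cadm2 and Ntng1 rest on 53, 121 and 470 UMIs outside Schwann-like barcodes, which limits their orders.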
